A study of Caenorhabditis elegans with 12 samples.

Results

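Superoxide dismutases, catalases and peroxiredoxins of Caenorhabditis elegans were followed in whole worms in which RNA interference (RNAi) had silenced y54g2a.18, the homologue of BCAP31, a gene for a membrane protein of the endoplasmic reticulum. The group was fixed by name as 10 genes of 46891 in the count table: sod-1, sod-2, sod-3, sod-4 and sod-5, ctl-1, ctl-2 and ctl-3, and prdx-2 and prdx-3. All 10 were found, and 6 held enough counts to be tested. The compared groups were 3 libraries of wild-type N2 worms after y54g2a.18 RNAi, called the knockdown here, and 3 libraries of N2 worms after the control RNAi of the same experiment. All were poly(A) RNA of whole worms, the labels give neither the age and stage of the worms nor the sequence used as control, and do not say whether the libraries of a group were grown as separate cultures. The spread between libraries may therefore be technical. A second experiment silenced rpoa-49, and its table, with 418 counts in all under names of human style, was not used here for these genes.

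Superoxide dismutases turn superoxide, a by-product of respiration, into hydrogen peroxide. Catalases and peroxiredoxins then remove the peroxide, catalases with a heme group and peroxiredoxins with reactive cysteines that thioredoxin restores. In the worm, SOD-1 and SOD-5 are copper and zinc enzymes of the cytosol, SOD-4 is a copper and zinc enzyme of the cell surface and extracellular space, and SOD-2 and SOD-3 are manganese enzymes of mitochondria. CTL-1 is the cytosolic and CTL-2 the peroxisomal catalase, while PRDX-2 is cytosolic and PRDX-3 mitochondrial. The transcript of sod-3 is widely used as a reporter of DAF-16, the FOXO factor that insulin signalling holds in check, and the enzymes have long been studied for their link to ageing.

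The libraries held 30103422 to 39492584 counts, and ribosomal RNA made up 0.214 to 1.64% of the control counts and 0.0937 to 2.02% of the knockdown counts. Levels are given as CPM, counts relative to library size after scaling by trimmed means. The targeted gene itself, Y54G2A.18, stood at 391, 358 and 409 CPM under control RNAi and at 190, 128 and 90.2 CPM after knockdown. Whole-worm RNA cannot tell fewer cells of a type from less RNA per cell.

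Several of the best-known enzymes of the group could not be measured. The main cytosolic and mitochondrial dismutase genes and the cytosolic peroxiredoxin gene were at or near 0. sod-2 had 0 counts in every library, where 3 counts over a group, the limit that counting error alone would allow, are 0.0266 CPM for the controls and 0.0284 CPM for the knockdown. These limits are too narrow where both mates of a pair were counted, and they bound the counts in the table, not the level of the transcript. prdx-2 had 0, 0 and 3 counts under control RNAi and 0, 2 and 2 after knockdown. sod-1 had 4, 4 and 5 counts under control RNAi and 14, 7 and 5 after knockdown, and ctl-3, a catalase gene next to ctl-1, had 10, 13 and 6 under control RNAi and 5, 11 and 6 after knockdown. These 4 genes are not measurable in this table, and no difference between the groups is given for them.

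The table as a whole held few counts for genes with several annotated transcripts. Of 13896 protein-coding genes with 1 transcript in the Ensembl annotation of WBcel235, 23.6% had a mean under 10 counts per library and 7.07% had 0 counts in all libraries. Both shares were higher for the 3514 genes with 2 transcripts, at 45.1 and 28.9%. For the 1345 genes with 4 or more transcripts they were 79.4 and 62.0%. Among the antioxidant genes, sod-1 and ctl-3 have 2 annotated transcripts, prdx-2 has 3 and sod-4 has 4, and only sod-4 of these 4 genes could be tested. Exon bases that belong to a single transcript were 204 of 1306 for sod-4 and 149 of 1631 for ctl-3. They were 243 of 720 for sod-1 and 168 of 756 for prdx-2, larger shares than for sod-4. Of the 6 genes with 1 transcript, 5 were tested and sod-2 was not, so its 0 counts do not go with the number of transcripts in this annotation. Exons of sod-2 share 21 of 802 bases with another gene. Whether the counting step set these values was not tested, and the sources used here do not give the authors' annotation.

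**Figure D1:**
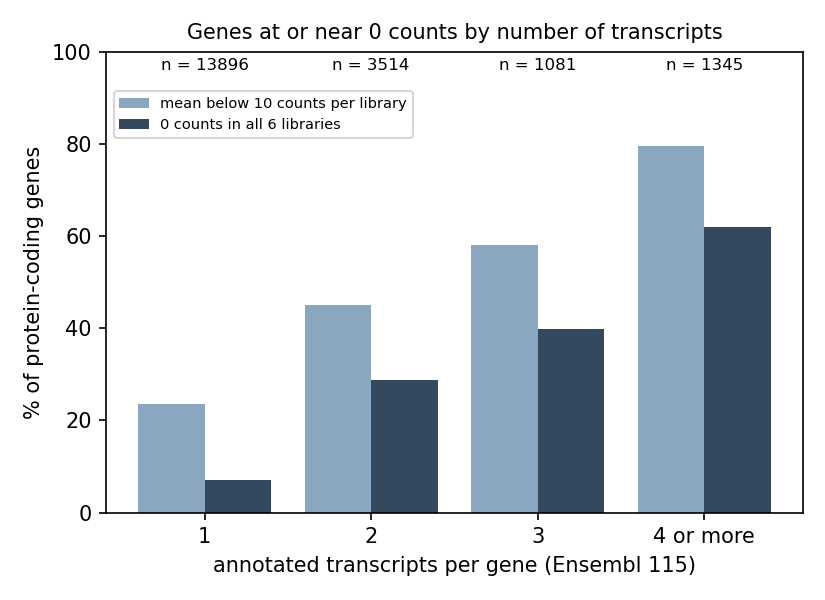
Share of protein-coding genes (percent, y axis) with a mean under 10 counts per library (light bars) or 0 counts in all 6 libraries (dark bars), by the number of annotated transcripts (x axis), with the number of genes above each pair. The share at 0 counts is 7.07% for genes with 1 transcript and 62.0% for genes with 4 or more.

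Per length of exon, the measurable genes lay far apart under control RNAi. prdx-3 stood first with 468 ± 38.4 CPM per kilobase (SD, n = 3), above 97.1% of 13537 tested genes with a known length. ctl-2 came next with 80.1 ± 4.19 CPM per kilobase, above 85.7% of them. sod-3 and ctl-1 followed with 18.0 ± 3.15 and 14.97 ± 0.63 CPM per kilobase, and these neighbours overlapped, since sod-3 ranged from 14.9 to 21.1 and ctl-1 from 14.3 to 15.4 CPM per kilobase. sod-5 and sod-4 were lowest, with 3.81 ± 0.80 and 2.42 ± 0.18 CPM per kilobase, above 37.2 and 29.9% of genes. These neighbours did not overlap under control RNAi. The order after knockdown was the same in the means, from 391 ± 102 CPM per kilobase for prdx-3 to 4.27 ± 1.58 for sod-5 and 3.54 ± 0.89 for sod-4, and there sod-5 and sod-4 overlapped. sod-4 was counted with 4 transcripts annotated, so its place in the order is uncertain. The shares of genes given here may be too high, since genes with several transcripts held few counts.

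**Figure D2:**
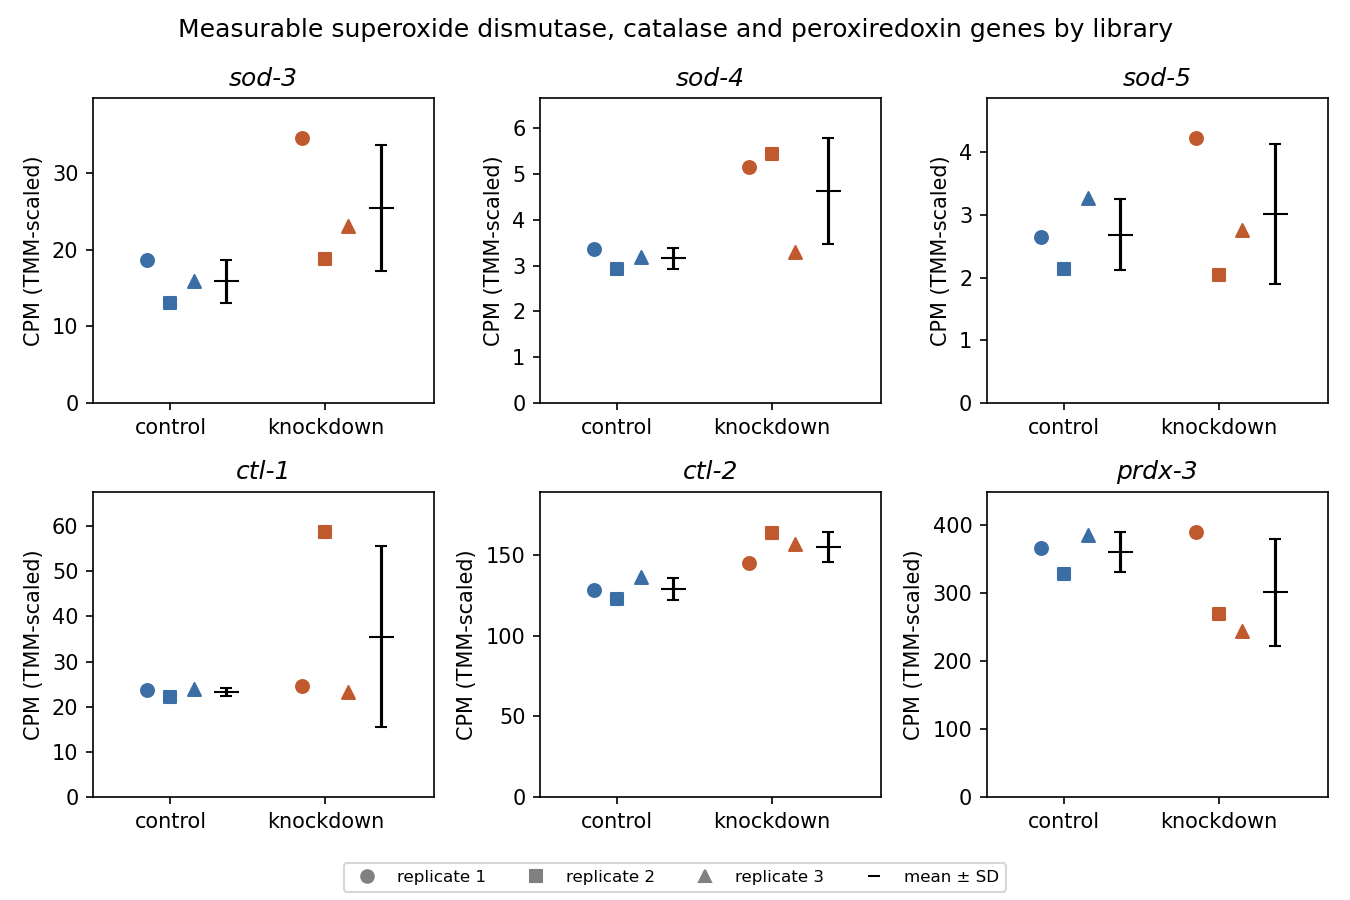
Level of the 6 measurable genes in each library (y axis, CPM after TMM scaling, from 0) for the control and knockdown groups (x axis), with 1 symbol per replicate number and the mean ± SD beside them. ctl-1 stands at 58.8 CPM in knockdown replicate 2 and between 22.2 and 24.6 CPM in the other 5 libraries, while the 3 knockdown values of ctl-2 lie above its 3 control values.

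Silencing of y54g2a.18 was not followed by a called change in any of the 6 tested genes. In edgeR's quasi-likelihood test 0 of 6 passed an adjusted p of 0.05, where 8.98% of all 14290 tested genes did, and DESeq2 and limma-voom also called 0. Before adjustment, 2 of the 6, sod-3 and sod-4, had a p under 0.05 in edgeR, against 23.3% of all tested genes.

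Among the superoxide dismutases, sod-3 stood at 18.6, 13.1 and 15.9 CPM under control RNAi and at 34.6, 18.8 and 23.1 CPM after knockdown. The groups touched without overlapping, and with libraries scaled by their totals alone they did overlap, with a highest control of 18.45 and a lowest knockdown of 18.43 CPM. The fitted level was 1.605-fold that of the controls, with a 95% interval of 1.07 to 2.41 before adjustment (log2 0.68, SE 0.26). The adjusted p was 0.15. Knockdown replicate 1 was the highest, and without it the log2 fold change was 0.40, with an adjusted p of 0.21. The target Y54G2A.18 was least reduced in that library, at 190 CPM against 128 and 90.2 CPM in the other knockdown libraries. Whether the degree of silencing bears on the sod-3 level was not tested.

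The extracellular enzyme gene sod-4 stood at 3.37, 2.92 and 3.18 CPM under control RNAi and at 5.16, 5.43 and 3.30 CPM after knockdown. Knockdown replicate 3 lay within the range of the controls, and the other knockdown libraries lay above it. With libraries scaled by their totals alone, the lowest knockdown was 3.52 and the highest control 3.34 CPM. The log2 fold change was 0.55 (SE 0.24, adjusted p = 0.21), and the interval of the fold ran from 1.01 to 2.14.

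The cytosolic enzyme gene sod-5 stood at 2.65, 2.14 and 3.27 CPM under control RNAi and at 4.23, 2.05 and 2.77 CPM after knockdown, so that the groups overlapped. Its log2 fold change was 0.17 (SE 0.31, adjusted p = 0.80), and the interval of 0.69- to 1.83-fold left room for a change in either direction. Without knockdown replicate 1 the log2 fold change was -0.16, with an adjusted p of 0.74. The 3 dismutase genes that could be measured summed to 21.7 ± 3.30 CPM under control RNAi and 33.1 ± 9.52 CPM after knockdown (SD, n = 3). Knockdown replicate 1 held the highest sum, 44.0 CPM. Most of the sum was sod-3, with means of 15.9 and 25.5 CPM, so it largely repeats the sod-3 values. sod-1 and sod-2 are not in it.

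The sources used here do not say how reads that fit more than one gene were counted. SOD-2 and SOD-3 are similar proteins, as are the catalases of neighbouring genes, so values of sod-3, ctl-1 and ctl-2 are uncertain to the extent that reads could be shared with sod-2 and ctl-3.

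Of the catalases, the peroxisomal gene ctl-2 stood at 128, 123 and 136 CPM under control RNAi and at 145, 164 and 157 CPM after knockdown. Every knockdown library lay above every control library, under both scalings by trimmed means and by totals. The difference was small, 1.20-fold with an interval of 0.99 to 1.46 (log2 0.26, SE 0.12, adjusted p = 0.24). Of the 6 tested genes 2, sod-3 and ctl-2, had groups that did not overlap after scaling by trimmed means, against 30.4% of all tested genes. With libraries scaled by totals the genes with groups apart were sod-4, ctl-1 and ctl-2. The share of all tested genes was not counted under scaling by totals, and the 30.4% does not apply to it.

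The cytosolic catalase gene ctl-1 stood at 23.6, 22.2 and 24.01 CPM under control RNAi and at 24.6, 58.8 and 23.2 CPM after knockdown. A single library, knockdown replicate 2, was far above the rest, and the other knockdown libraries lay close to the controls. The fitted log2 fold change was 0.61 (SE 0.34, adjusted p = 0.33), and without that library it was 0.04 (adjusted p = 0.91). In that library ctl-1 made up 26.5% of the counts of ctl-1 and ctl-2 together, against 12.9 to 15.6% in the other 5 libraries. The catalases of the worm are prominent in the intestine, and the summed intestine markers were also highest in knockdown replicate 2, at 4860 CPM, against 3159 and 3648 CPM in the other knockdown libraries and 2970 to 3121 CPM under control RNAi. Of 9 intestine markers 8 were tested, 0 were called, 2 had an unadjusted p under 0.05 in edgeR, and ifb-2 was at 0. The sum was mostly asp-1, at 3902 CPM in knockdown replicate 2, while elt-7 and gut-2 had their lowest values of all libraries there. Summed neuron markers were also highest in that library, at 1119 CPM, against 742 and 787 CPM in the other knockdown libraries and 694 to 725 CPM in the controls, with unc-31 and unc-104 at 0. The part of these markers in the ctl-1 value was not tested.

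The mitochondrial peroxiredoxin gene prdx-3 stood at 367, 328 and 386 CPM under control RNAi and at 391, 269 and 244 CPM after knockdown. Knockdown replicate 1 was the highest of all libraries and knockdown replicates 2 and 3 the lowest, so the groups overlapped. The log2 fold change was -0.26 (SE 0.19, adjusted p = 0.47), which is a fold of 0.84 with an interval of 0.62 to 1.13. The value depended on single libraries. Without knockdown replicate 1 the log2 fold change was -0.49 and the adjusted p 0.044, which was the only call of any of these genes in the alternatives run. In that setting 1 of 7 tested genes of the group was called, and 2097 of all 14610 tested genes. With all 6 libraries 1283 of 14290 tested genes were called. Without knockdown replicate 3 the log2 fold change of prdx-3 was -0.13 (adjusted p = 0.73).

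**Figure D3:**
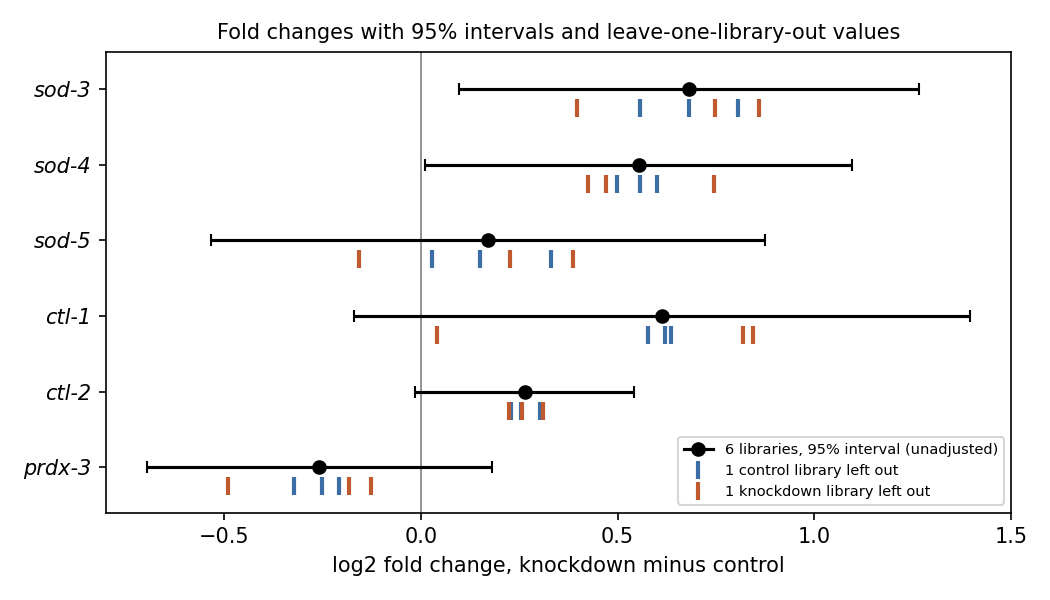
Log2 fold change, knockdown minus control (x axis), of the 6 measurable genes (y axis), with the estimate over 6 libraries and its unadjusted 95% interval in black and the values with 1 library left out as ticks under it. The tick of ctl-1 without knockdown replicate 2 lies at 0.04, far from its estimate of 0.61, and the ticks of ctl-2 stay between 0.22 and 0.31.

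The pair of measurable mitochondrial enzymes, sod-3 and prdx-3, was also set against each other within each library, a ratio chosen after the values were seen. There were 5.08, 3.99 and 4.12 sod-3 counts per 100 prdx-3 counts under control RNAi and 8.85, 6.98 and 9.46 after knockdown. The groups did not overlap, and the means were 4.40 ± 0.60 and 8.43 ± 1.29 (SD, n = 3). Because the ratio was built from genes already seen to lie in opposite directions, it is a description with no test, and it does not depend on how the libraries are scaled.

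Ribosomal RNA made up 0.0937, 1.31 and 2.02% of the counts in knockdown replicates 1, 2 and 3 and 1.03, 1.64 and 0.214% in the controls. The control with the highest share, replicate 2, had the lowest control level of sod-3. Knockdown replicate 1, with the lowest share, had the highest sod-3 level. The remaining libraries of each group did not continue that inverse order. Summed sperm markers were highest in knockdown replicate 1, like sod-3, at 282 CPM, against 181 and 164 CPM in the other knockdown libraries and 134 to 147 CPM under control RNAi. The remaining libraries did not keep the sod-3 order. The sperm sum was higher in knockdown replicate 2 than in 3, while sod-3 was lower there, at 18.8 against 23.1 CPM. Among the controls the sperm sum was highest in replicate 3 and sod-3 in replicate 1. Of 9 sperm markers 7 were tested, 0 were called, 2 had an unadjusted p under 0.05 in edgeR, and spe-41 and msp-31 were at 0. The sum in knockdown replicate 1 was mostly msp-19, msp-142 and msp-3, at 118, 78.7 and 57.2 CPM. spe-9 and spe-38 were not highest in that library, while the other tested sperm markers were. With ribosomal RNA share as a covariate, on a log scale, the log2 fold change of sod-3 was 0.62 (adjusted p = 0.063). The part of the sperm markers in the sod-3 value was not tested. Among 7010 other genes with a mean of at least 10 CPM over the 6 libraries, those whose values over the 6 libraries were most like the sod-3 values were R09A1.3, Y57G11B.5 and nspd-4, of a nematode-specific peptide family, with root mean square differences of 0.12, 0.15 and 0.15 on the log2 scale. R09A1.3 passed that bound through the knockdown libraries, with a mean of 9.01 CPM under control RNAi and 13.8 CPM after knockdown. nspd-4, chosen like the others for its likeness to sod-3 over the same libraries, stood at 16.2, 15.2 and 17.3 CPM under control RNAi and at 40.4, 20.03 and 24.1 CPM after knockdown.

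**Figure D4:**
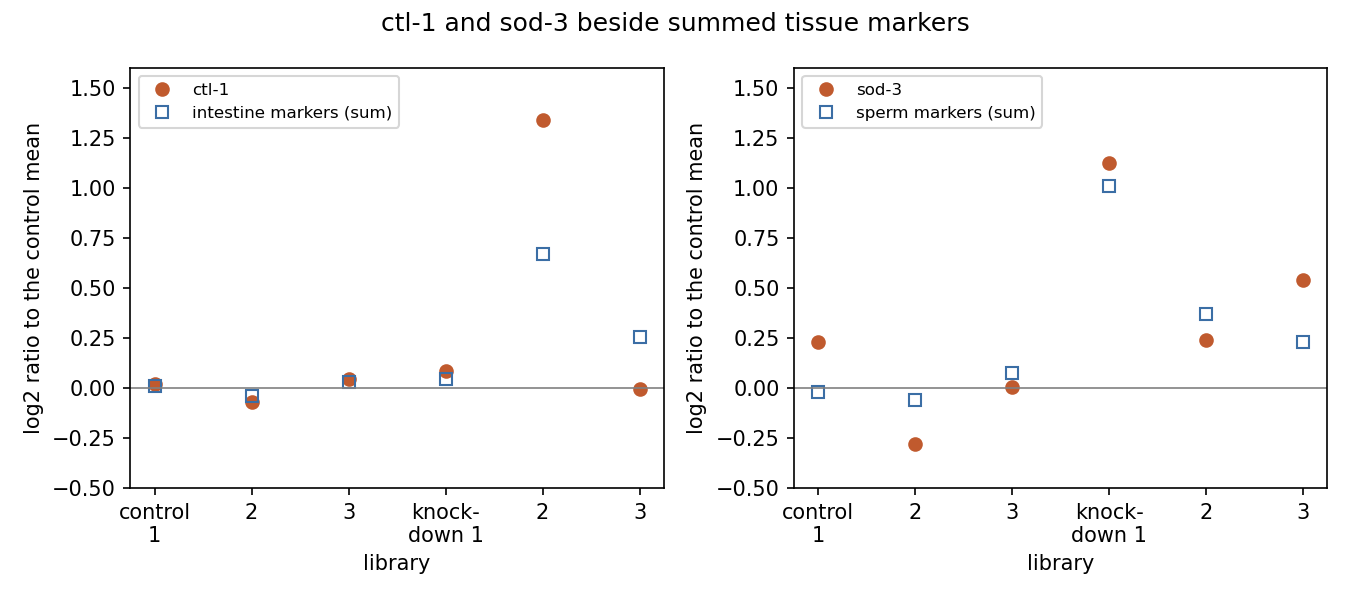
Log2 ratio of each library to the mean of the controls (y axis) for ctl-1 beside the summed intestine markers (left) and for sod-3 beside the summed sperm markers (right), by library (x axis). ctl-1 and the summed intestine markers are both highest in knockdown replicate 2, and sod-3 and the summed sperm markers in knockdown replicate 1. In both panels the order of the remaining knockdown libraries differs between the gene and the markers.

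Markers of other tissues were also followed. The 4 testable hypodermis markers of 8 were all called lower, and all 4 are cuticle collagen genes: rol-6 fell from 776 ± 67.2 to 178 ± 74.5 CPM, dpy-7 from 264 ± 30.7 to 71.3 ± 31.1 CPM and sqt-3 from 94.5 ± 4.35 to 31.2 ± 16.4 CPM (SD, n = 3), while col-19 and bli-1 were at 0. Leaving out any single control library ended the call of sqt-3 (adjusted p of 0.055 to 0.064), and that of dpy-13, the other called marker, was lost without control replicate 1 or 3 (adjusted p of 0.058 and 0.065). The summed hypodermis markers ran from 1463 to 1755 CPM under control RNAi and from 249 to 630 CPM after knockdown. No marker of muscle, neurons or the germline and oocytes was called among 6, 4 and 8 tested, and 1, 0 and 1 of them had an unadjusted p under 0.05 in edgeR. Median log2 fold changes were 0.49, 0.35 and -0.36 for these lists, against 0.02 for all tested genes.

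The other genes of peroxide and thiol metabolism gave a single call. Of 82 genes in 7 lists of partner pathways, chosen with earlier results of these data known, 51 were tested, 0 rose and 1 fell in edgeR, against 3.97% higher and 5.01% lower of all tested genes, and 10 had an unadjusted p under 0.05. The median log2 fold change was 0.03. The gene that fell was skpo-2, a peroxidase gene with an ShK domain, at 10.4 ± 1.68 CPM under control RNAi and 4.07 ± 1.48 CPM after knockdown (SD, n = 3). Its log2 fold change was -1.35 (SE 0.30, adjusted p = 0.025), and leaving out any single control library ended the call (adjusted p of 0.068 to 0.11). skpo-2 moved in the same direction as the hypodermis markers, which were all collagen genes. The other tested oxidant producers and peroxidases of its list went both ways, and none was called. Log2 fold changes were 0.71, 0.20 and 0.13 for mlt-7, skpo-3 and bli-3. They were -0.49, -0.27 and -0.13 for skpo-1, tsp-15 and doxa-1. The part of the hypodermis markers in the skpo-2 value was not tested.

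Glutathione peroxidases, which remove peroxides with glutathione, had 5 tested genes of 8, 0 of them called and 2 with an unadjusted p under 0.05 in edgeR. gpx-4, chosen like the next genes after the values were seen, stood at 4.01 ± 0.29 CPM under control RNAi and 2.099 ± 0.62 CPM after knockdown (SD, n = 3), with an adjusted p of 0.066. gpx-1 stood at 55.9 ± 3.67 and 42.2 ± 3.94 CPM (adjusted p = 0.12), and gpx-5 at 70.5 ± 3.21 and 85.5 ± 5.43 CPM (adjusted p = 0.22).

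The thioredoxin and glutathione system, which recharges peroxiredoxins and peroxidases, had 11 tested genes of 16, 0 of them called and 3 with an unadjusted p under 0.05 in edgeR. trx-3, a thioredoxin gene, stood at 39.0 ± 4.10 CPM under control RNAi and 56.8 ± 5.12 CPM after knockdown (adjusted p = 0.057). msra-1, which encodes a methionine sulfoxide reductase, stood at 349 ± 31.7 and 249 ± 63.7 CPM (adjusted p = 0.18). prdx-6, the peroxiredoxin gene outside the 10 followed here, stood at 133 ± 12.2 and 107 ± 23.2 CPM (adjusted p = 0.32). The thioredoxin reductase gene trxr-2 stood at 18.4 ± 0.54 and 16.01 ± 1.18 CPM (adjusted p = 0.50), and gcs-1, which makes the first step of glutathione synthesis, at 52.7 ± 9.03 and 55.7 ± 11.1 CPM (adjusted p = 0.85).

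Lists of metal and heme handling, peroxisome biogenesis and mitochondrial stress had 8, 8 and 4 tested genes and 0 calls, with 2, 0 and 0 unadjusted p under 0.05 in edgeR. Their median log2 fold changes were 0.01, 0.19 and -0.11. The copper chaperone gene cuc-1 stood at 110 ± 7.41 CPM under control RNAi and 90.0 ± 21.6 CPM after knockdown. The mitochondrial chaperone gene hsp-6 had a log2 fold change of -0.03 (SE 0.23). Of 21 regulators of insulin, DAF-16 and SKN-1 signalling only 8 could be tested, 0 were called and 1, the kinase gene sek-1, had an unadjusted p under 0.05 in edgeR. daf-16, daf-2, akt-1 and 9 others of these regulators were listed at 0 in all libraries, so their transcripts could not be set beside sod-3. The control of sod-3 by this pathway was not tested. Of the 22 genes at 0 in the 7 lists, 21 have 2 or more annotated transcripts. Among all protein-coding genes at 0, 983 have 1 annotated transcript, 1014 have 2, 431 have 3 and 834 have 4 or more. How many of all the listed genes have several transcripts was not counted, and the cause of the 0 counts was not tested.

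**Figure D5:**
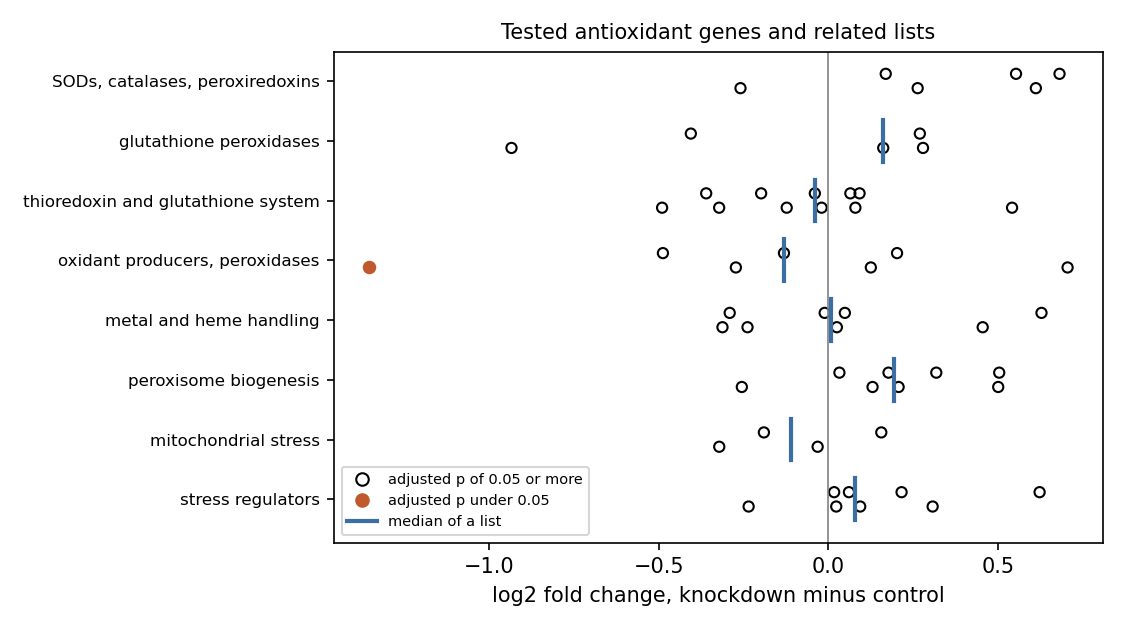
Log2 fold change, knockdown minus control (x axis), of the tested genes of each list (y axis), as open circles where the adjusted p was 0.05 or more and filled where it was under 0.05, with the median of each of the 7 partner lists as a line. The single filled circle is skpo-2, at -1.35.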

How the data were processed

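Poly(A) RNA of whole worms was sequenced in 12 libraries, 3 in each of 4 groups. The authors deposited raw counts per gene, unnormalized, 1 column per library. Per the submitters' processing notes, the tools included HISAT2 2.2.1 and featureCounts 1.28.1, beside DESeq2 1.16.1 and FastQC 0.11.9, in no stated role. The sources used here do not give the build, annotation or strand setting. Groups come from the titles and columns from the library names. Of 46903 entries, 12 named as dates were left out (at most 0.0247% of a library's counts). Of counts from 1 to 20, 71.5% were even, as when both mates are counted, so counting limits are too narrow.

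The 6 libraries were fitted in R 4.3.3 with edgeR 4.0.16: filterByExpr (minimum count 10, minimum total 15), TMM scaling, quasi-likelihood test with the group as its only term, Benjamini-Hochberg adjustment over all tested genes, called at 0.05. Standard errors are the absolute log2 fold change over the square root of F, and so approximate. Steps were tested on simulated data. DESeq2 1.42.0 and limma 3.58.1 (voom) were alternatives. The 10 genes, 13 lists and the rule for named genes (all 10; up to 3 called genes per list; the 3 genes most like the member with the smallest p; the target) were set with earlier results of these data known. Transcript numbers and exon lengths are from the Ensembl 115 annotation of WBcel235, which may not be the authors' build, so no coordinates are given. No sequences are shown.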

Additional observations from a re-analysis of the deposited data

How the results depend on the processing

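Alternatives were 3 scalings, 2 filters, DESeq2, limma-voom, a block for replicate number, ribosomal RNA share as a covariate, each library left out, and, chosen after seeing the data, only genes with 1 annotated transcript. None of the 10 genes was called under any of these except prdx-3 without knockdown replicate 1, so that 0 to 1 were called with a library left out. The direction of the 6 tested genes held under every alternative that gave a value (15 for sod-4, which has several transcripts, and 16 for the others) except for sod-5, whose log2 fold change was -0.16 without knockdown replicate 1 and ran up to 0.39 with other libraries left out. Over all genes 1283 were called, 2215 with the ribosomal RNA covariate and 646 to 2097 with a library left out (646, 664 and 667 when control replicate 1, 2 or 3 was omitted, 2097 when knockdown replicate 1 was). Of the partner genes 1 was called, 2 with library totals alone, 3 with DESeq2, 6 with the ribosomal RNA covariate, 2 with genes of 1 transcript, and 0 to 7 with a library left out, 0 without any one control library and 7 without knockdown replicate 1. Deviations of same-numbered libraries from their group means correlated at 0.01, 0.05 and -0.37. Some libraries with different numbers correlated more strongly. Control replicate 3 with knockdown replicate 1 gave 0.39, and control replicate 2 gave 0.40 with knockdown replicate 3 and -0.42 with knockdown replicate 1. Such shared variation means that these values cannot settle whether same-numbered libraries were paired. With the replicate block 955 genes were called, 0 of the 10 and 1 partner gene. The causes were not tested.

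Counts were low for sod-4 and sod-5, at 77 to 204 per library. Why 4 genes were at or near 0 was not tested.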
